A study of Mus musculus with 3 samples.

Results

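The genes examined were those that encode H2A.Z and the machinery that places it in chromatin, reads it or takes it out again. The list was set by name and held 10 of the 22350 protein-coding genes annotated on the 20 chromosomes of the region lists: H2afz, H2afv, Srcap, Ep400, Kat5, Ruvbl1, Ruvbl2, Ino80, Vps72 and Anp32e. All 10 were found in the annotation, in 11 gene records, because Srcap is split there into 2. For each gene the sequence within 2 kb of every annotated transcript start was examined, and then the whole gene with 10 kb of flank on either side. The members were not selected on measured values, though earlier results of these data were known when they were chosen.

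The data were ChIP-Seq region lists from mouse embryonic stem cells (ESCs), with 3 libraries that formed 3 groups of 1 library each. The H2A.ZWT group expressed wild-type H2A.Z fused at its C terminus to yellow fluorescent protein (YFP). The H2A.ZAP3 group expressed the same fusion with 3 residues of the acidic patch, a charged surface of the nucleosome, exchanged for those of core H2A. In both groups the transgene was a cDNA behind a CMV promoter under rtTA control, induced with doxycycline in KH2 ESCs sorted for YFP, into which hairpins against endogenous H2A.Z were then brought with blasticidin selection. The labels carry this protocol for every library and do not say which hairpin, if any, the cells of a given library held. Both were immunoprecipitated with an anti-GFP antibody, which recognises the tag, so neither list counts untagged H2A.Z or the H2afv product. The H3K27me3 group had the genotype label WT and was immunoprecipitated for histone H3 carrying the trimethyl mark at lysine 27. The labels give the strain of all 3 libraries as V6.5 (129SvJaexC57BL/6), and the cells were plated without feeder fibroblasts for the last passage. Each library is given as a list of regions at a threshold of 1e-9 and another at 1e-12, with coordinates on mm9 and with no heights, so read depth is unknown. With 1 library per group there was no replicate spread, and no difference between groups was tested. A gene without a region is one where nothing passed the threshold, which does not show that the protein is absent.

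H2A.Z is encoded in the mouse by H2afz and H2afv, whose proteins differ at very few residues. The variant is exchanged into nucleosomes in place of H2A by remodelling complexes of the INO80 family. SRCAP, the catalytic subunit of the complex of that name, and EP400, the catalytic subunit of the TIP60 complex, perform this exchange, and VPS72 binds the H2A.Z-H2B dimer in both complexes. KAT5 is the acetyltransferase of the TIP60 complex. RUVBL1 and RUVBL2 are AAA+ ATPases shared by the SRCAP, TIP60 and INO80 complexes. INO80 is the ATPase of a complex linked to H2A.Z removal, and ANP32E is a chaperone that strips H2A.Z from nucleosomes.

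The target sites of the hairpins, named as in the labels, are shown because they lie in H2afz itself, outside the coding sequence that the transgene carries. Each hairpin sequence in the labels matched the H2afz 3′ untranslated region exactly, in the sense of the transcript. The site of sh#2 began 47 bases after the last coding base and that of sh#5 began 143 bases after it. In the lines below, read from the plus strand of mm9, capitals mark the target site.
sh#2, chr3:137529451-137529480: tcctAACAGCTGTCCAGTGTTGGTGattcc
sh#5, chr3:137529547-137529576: gcttAATTAGCCTTCCAACCAACCAaattt
Neither site was covered by a region of any library in either list. Exact matches of sh#2 occurred at 4 places in the genome and of sh#5 at 5, of which 1 each was in H2afz. Both sequences also matched in Gm8203, a pseudogene on chromosome 6 that lies within the protein-coding gene Tmcc1, and in Gm17284, a lincRNA on chromosome 12. That of sh#2 also matched within Fgfr2, a growth factor receptor gene, 260 bp from an H2A.ZWT region, and that of sh#5 at 2 places with no annotated gene. None of these matches lay in H2afv.

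H2A.ZWT was called within 2 kb of a transcript start at 6 of the 10 genes: Ruvbl2, Vps72, Kat5, Ruvbl1, Anp32e and H2afz. In the same list 61.7% of all protein-coding genes had such a region, so the count was close to the background. At 1e-12 there were 5 genes, since H2afz dropped out, against 60.0% of all genes. H2A.ZAP3 was called at 2 of the 10 in both lists, Ruvbl1 and Anp32e, against 23.2% of all genes at 1e-9 and 18.8% at 1e-12. H3K27me3 was called at 0 of the 10 in both lists, against 18.2% and 15.7% of all genes. Counted by start, a region of H2A.ZWT lay within 2 kb of 25 of the 47 distinct starts and one of H2A.ZAP3 within 2 kb of 10. At 1e-12 the counts were 18 and 10. Starts of the same gene share regions, so they are not separate calls, and the 10 for H2A.ZAP3 all belong to Ruvbl1 and Anp32e. The share over all annotated starts was not computed, so these counts are not read further.

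**Figure D1:**
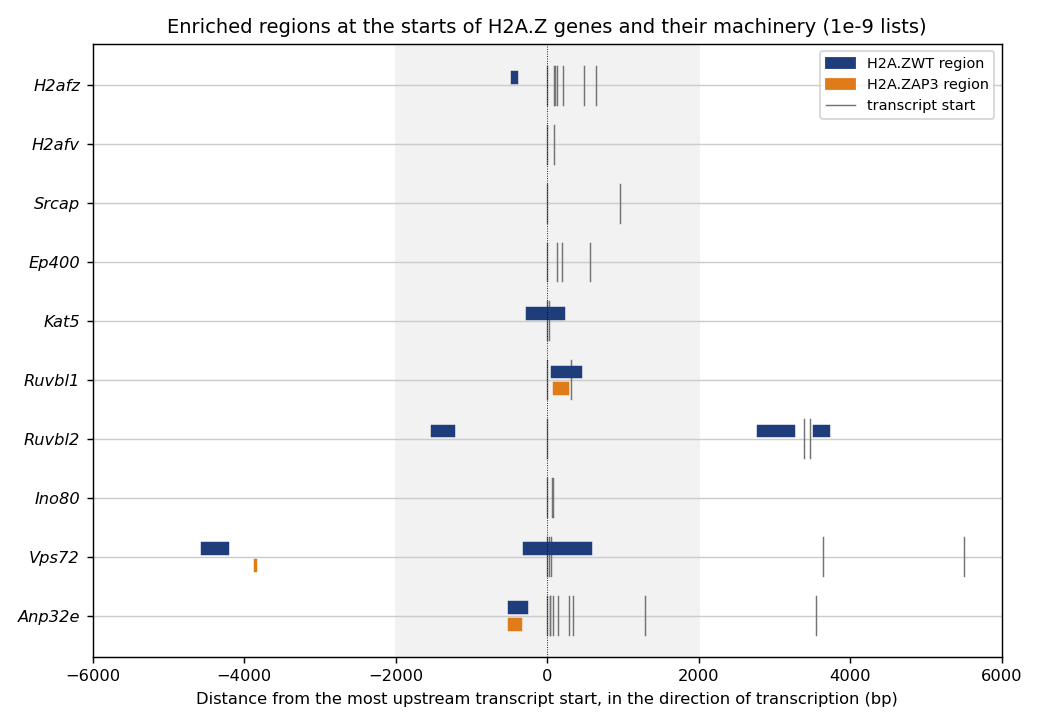
Each row is a gene and the x axis is the distance in bp from its most upstream transcript start, in the direction of transcription. Bars are regions of the 1e-9 lists, grey ticks are transcript starts and the shaded band is 2 kb on either side of that start. Kat5 and Vps72 have an H2A.ZWT region over the start, and H2afv, Srcap, Ep400 and Ino80 have none in view.

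H2afz, the gene for the main H2A.Z isoform (mm9 chromosome 3, 137527451 to 137529886), had very little H2A.ZWT of its own. A single region of 75 bp was called, from -475 to -401 bp relative to the most upstream start. It was in the 1e-9 list and not in the 1e-12 list, as was the case for 5.48% of all genes with H2A.ZWT at a start. Of all genes with H2A.ZWT at a start, 2.44% had fewer covered bases than H2afz. The middle of this region is shown because it is the only enriched sequence found at the gene, with CpG dinucleotides in capitals.
H2afz H2A.ZWT region, chr3:137526998-137527027: ttgcCGgaCGccttCGagccacctgtcaga
The H2A.ZAP3 region nearest to the H2afz start was 15.8 kb away and the H3K27me3 region nearest to it 201 kb away, so no region of either library lay within 10 kb of the gene.

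The tagged transgene holds the H2afz coding sequence and may add signal over exons in both anti-GFP libraries. The measured exon coverage was 0 bp in H2A.ZWT and 0 bp in H2A.ZAP3, in both lists, of 1776 bp annotated as exon in any transcript. The introns, 660 bp in all, were also uncovered. H2afz has copies elsewhere in the genome, and of the stretches of 32 bases centred in its exons 56.0% occurred only once in mm9, against 100% of those in its introns. How reads with several matches were treated is not given in the sources used here, and its part in the missing exon regions was not tested.

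H2afv, which encodes the minor isoform (chromosome 11, 6327229 to 6344446), had no region of any library within the gene or 10 kb of it. Its nearest H2A.ZWT region, of 200 bp, lay 11.7 kb upstream of the most upstream start, and its nearest H2A.ZAP3 region, of 75 bp, lay 11.8 kb upstream. Of 15 protein-coding genes that start within 250 kb of it, 11 had H2A.ZWT at a start, against 68.2% of all genes on chromosome 11. Of the stretches of 32 bases within 2 kb of its starts, 93.4% occurred once in the genome.

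The genes for the large catalytic ATPases of the complexes, Srcap, Ep400 and Ino80, were alike in that none had an H2A.ZWT region at any start in either list. Srcap (chromosome 7, 134655541 to 134708780 over both records) had its nearest H2A.ZWT region 62.9 kb from the most upstream start. Ep400 (chromosome 5, 111093392 to 111199736) had its nearest one at 68.7 kb, and 12% of all genes were farther from one. Ino80 (chromosome 2, 119198778 to 119303423) had its nearest one at 45.7 kb. Over all protein-coding genes the median distance was 0.359 kb, with quartiles of 0 and 16.7 kb. Ep400 has 9 distinct starts and Ino80 has 4, some of them far inside the gene, and none of these had a region within 2 kb.

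The absence extended over the whole of these genes. Ep400 with its flanks spans 126 kb and Ino80 with its flanks 125 kb, and neither window held an H2A.ZWT, H2A.ZAP3 or H3K27me3 region in either list. Of the 3064 genes whose window spans at least 100 kb, 92.5% held an H2A.ZWT region and 229 did not. Srcap with its flanks held 1 region, of H2A.ZAP3. That region had the smallest length on the grid, 25 bp, was absent from the 1e-12 list and lay nearest to a start of Phkg2. Of the genes within 250 kb, H2A.ZWT was at a start of 15 of 20 around Srcap, 5 of 7 around Ep400 and 11 of 12 around Ino80. Over all genes of chromosomes 7, 5 and 2 the shares were 50.2%, 66.5% and 61.4%.

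**Figure D2:**
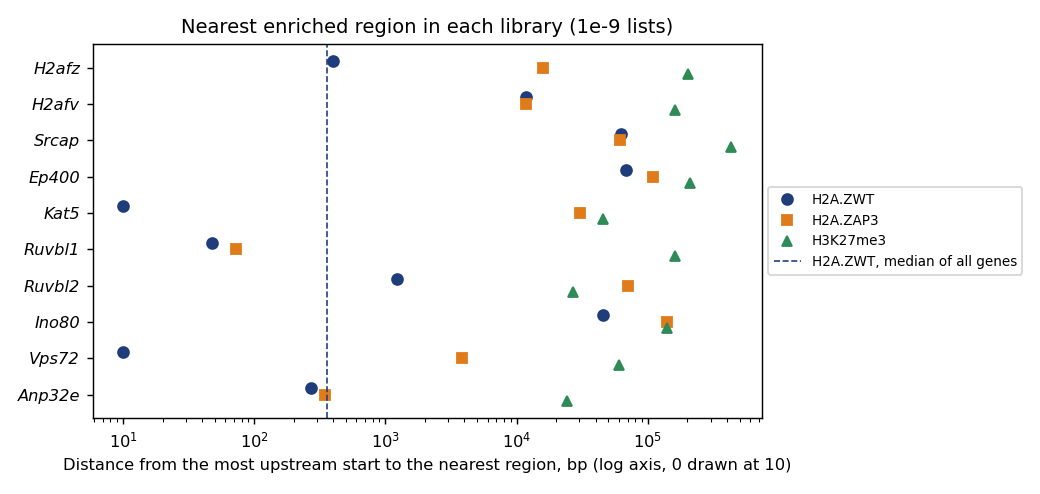
Distance in bp, on a log axis, from the most upstream start of each gene to the nearest region of each library in the 1e-9 lists, with 0 drawn at 10. The dashed line is the median H2A.ZWT distance of all protein-coding genes, 0.359 kb. H2A.ZWT lies 45.7 to 68.7 kb away at Ino80, Srcap and Ep400 and directly over the start at Kat5 and Vps72.

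Kat5, which encodes the TIP60 acetyltransferase (chromosome 19, 5603017 to 5610050), had an H2A.ZWT region of 500 bp over its start, from -275 to 224 bp. It measured 475 bp within the window at 1e-12. Among all genes with H2A.ZWT at a start, 36.3% had fewer covered bases. A further H2A.ZWT region of 600 bp in the downstream flank had its midpoint 110 bp from a start of Rnaseh2c, a gene for a ribonuclease subunit, and so belongs to a neighbour. No H2A.ZAP3 or H3K27me3 region lay within 10 kb of Kat5.

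Both AAA+ ATPase genes carried H2A.ZWT, in different arrangements. Ruvbl1 (chromosome 6, 88415403 to 88447566) had 1 region of 400 bp just downstream of the most upstream start, from 48 to 447 bp, which spanned its other start at 318 bp and was unchanged at 1e-12. Inside it lay an H2A.ZAP3 region of 200 bp, from 73 to 272 bp, that shrank to 100 bp at 1e-12. A separate H2A.ZWT region of 100 bp lay farther upstream, from -8502 to -8403 bp. Ruvbl2 (chromosome 7, 52677222 to 52693466) had the most H2A.ZWT of the 10 genes when summed over all starts. This was 1000 bp at 1e-9 and 850 bp at 1e-12, and more than in 70.7% of the genes with H2A.ZWT at a start. The windows grow with the number and spread of starts, and spanned 7474 bp at Ruvbl2 and 4022 bp at Kat5. Within 2 kb of the most upstream start Ruvbl2 had 300 bp, against 900 bp at Vps72, 500 bp at Kat5 and 400 bp at Ruvbl1. None of the H2A.ZWT of Ruvbl2 was over that start. Regions of 500 and 200 bp lay from 2766 to 3265 bp and from 3516 to 3715 bp, on both sides of the internal starts at 3387 and 3473 bp, and a region of 300 bp lay upstream from -1534 to -1235 bp. The region of 500 bp was nearest to a start of Gys1, the neighbouring gene for glycogen synthase, so it cannot be assigned to Ruvbl2 alone. No H2A.ZAP3 region was called within 10 kb of Ruvbl2, and the nearest was 70.4 kb from its start.

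Vps72, the gene for the H2A.Z-binding subunit (chromosome 3, 94914944 to 94926973), had the longest single region found at a start, 900 bp of H2A.ZWT from -318 to 581 bp. It measured 875 bp within the window at 1e-12, and 64.9% of the genes with H2A.ZWT at a start had fewer covered bases than Vps72. Its starts at 3640 and 5504 bp had none. In its flanks an H2A.ZWT region of 350 bp lay near a start of Pip5k1a and one of 125 bp was nearest to Tmod4. The only H2A.ZAP3 region within 10 kb was 25 bp long, from -3868 to -3844 bp, and again nearest to Pip5k1a.

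Anp32e, the gene for the H2A.Z-removing chaperone (chromosome 3, 95733169 to 95751313), had no H2A.ZWT over its start or gene body, and at its starts a single region upstream, of 250 bp from -518 to -269 bp. It measured 200 bp at 1e-12, and 14.1% of the genes with H2A.ZWT at a start had fewer covered bases. The H2A.ZAP3 region there shared its upstream edge and ran from -518 to -344 bp, 175 bp in all and 100 bp at 1e-12. Of its 10 starts 8 lay within 2 kb of these regions, and those at 3555 and 14958 bp had no region within that distance. A further H2A.ZWT region of 525 bp lay beyond the end of the gene, from 21532 to 22056 bp.

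**Figure D3:**
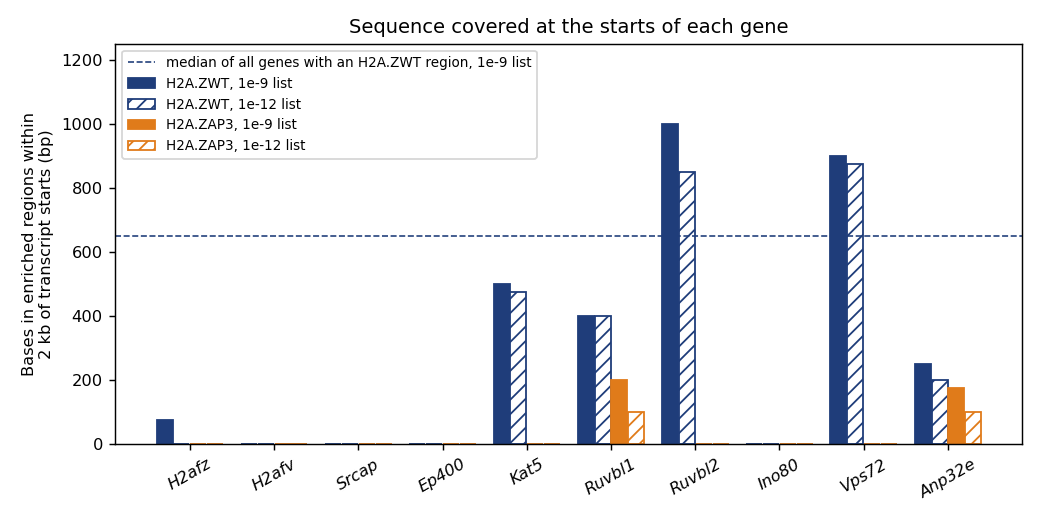
Bars give the bases in enriched regions within 2 kb of any transcript start, in bp, for H2A.ZWT and H2A.ZAP3 in the 1e-9 lists (filled) and 1e-12 lists (hatched). The dashed line is the median over all genes with an H2A.ZWT region, 650 bp, and of the 10 genes Ruvbl2 and Vps72 lie above it. H3K27me3 is not drawn because it was 0 bp at every gene.

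The effect of the acidic patch exchange at these genes could be described only as a difference between 2 lists. H2A.ZAP3 covered 375 bp and H2A.ZWT 3125 bp within 2 kb of the starts of the 10 genes, which is 12%. Over all protein-coding genes the corresponding value was 14.3%. Of the 6 genes with H2A.ZWT at a start, 2 also had H2A.ZAP3, against 35.5% of all 13782 genes with H2A.ZWT. In both genes every base of H2A.ZAP3 lay inside the H2A.ZWT region, and it covered 200 of 400 bp at Ruvbl1 and 175 of 250 bp at Anp32e. Ruvbl2 and Vps72, with the most H2A.ZWT summed over their starts, had no H2A.ZAP3 at their starts. The H2A.ZAP3 list is dense on chromosome 6, where Ruvbl1 lies, with a region at a start of 43.6% of its genes, against 20.5% on all chromosomes other than 6 and 8. The part of this in the call at Ruvbl1 was not tested. Without chromosomes 6 and 8 the covered share was 6.42%, against 10.7% over all genes.

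None of the 10 genes carried H3K27me3, the Polycomb mark of silent developmental genes, at a start or within 10 kb. At 1e-9, 18.2% of all protein-coding genes had it at a start and 24.9% in the gene with flank. The nearest H3K27me3 region was 24.3 kb from the start of Anp32e, 26.8 kb from Ruvbl2, 45.3 kb from Kat5 and 60.1 kb from Vps72. At the other 6 genes it was 141 to 432 kb away, the farthest being at Srcap. The distances to H3K27me3 over all genes were not computed, so these values are not read further.

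Over the genes with 10 kb of flank, H2A.ZWT was found at 6 of the 10, the same genes as at the starts, against 75.1% of all protein-coding genes. At 1e-12 it was found at 5, against 72.8%. H2A.ZAP3 was found at 4 at 1e-9 (Ruvbl1, Anp32e, Vps72 and Srcap), against 39.3%, and at 2 at 1e-12 (Ruvbl1 and Anp32e), against 32.6%. H3K27me3 was found at 0 of the 10 in both lists, against 24.9% and 21.3%. The windows held 16 H2A.ZWT regions and 4 H2A.ZAP3 regions at 1e-9. Of the former, 9 had a start of the gene itself as the nearest and 7 that of another gene, and of the latter 2 and 2.

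Genes near the 6 with H2A.ZWT at a start and near the 4 without were compared by their own calls. H2A.ZWT was called at a start of 83 of 107 protein-coding genes within 250 kb of the former (77.6%) and of 42 of 54 within 250 kb of the latter (77.8%). The shares were alike, and no test was run on them. Over all protein-coding genes the share was 61.7%. None of the 10 genes had a protein-coding gene on the opposite strand whose most upstream start lay within 1 kb upstream of its own. Only the most upstream starts were compared, so the internal starts of Ruvbl2, which lie near a start of Gys1, were not covered.

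CpG-rich sequence is the usual setting of H2A.Z at mammalian promoters, and 9 of the 10 genes had more CpG at the start than the median of all genes, Ruvbl2 having fewer. Within 500 bp of the most upstream start they held 23 to 122 CpG dinucleotides, with a median of 65, against a median of 41 over all genes, 55 over genes with H2A.ZWT and 11 over genes without. The members without H2A.ZWT were at the upper end, with 73 in Srcap, 88 in H2afv, 98 in Ino80 and 120 in Ep400. H2afz, with its single short region, had 122. The genes with 250 bp or more of H2A.ZWT had fewer, with 57 in Anp32e, 56 in Kat5, 49 in Vps72, 43 in Ruvbl1 and 23 in Ruvbl2. At Ruvbl2 only 300 of the 1000 bp lay within 2 kb of the start where CpG was counted. Split at 250 bp the groups did not overlap, but split by a call they did, since H2afz had a region and 122 CpG. These groups were formed after the values were seen. The share of all genes with 250 bp or more was not computed by CpG, so the split is not read further. Over all genes the share with H2A.ZWT at a start, which is not a measure of bases, was also taken. It was 84.9% at 40 to 59 CpG, 81.5% at 60 to 79, 81.0% at 80 to 99 and 82.2% at 100 or more. The median bases of the genes called in these bins were 700, 725, 725 and 550 bp. Among called genes without H3K27me3 they were 575, 600, 575 and 425 bp. Of all genes with at least 23 CpG, the lowest value among the members, 81.1% had H2A.ZWT.

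**Figure D4:**
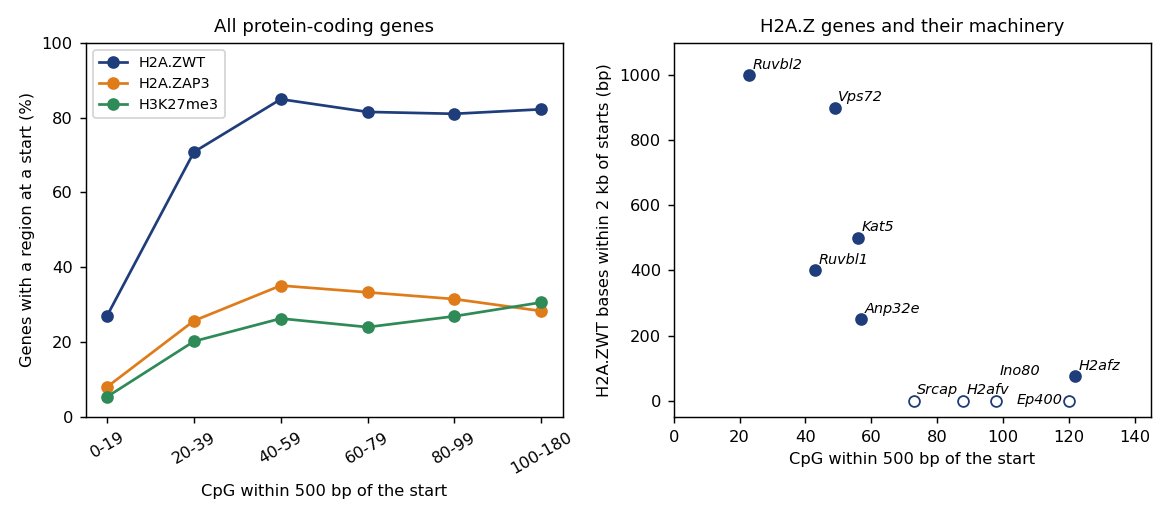
Left, the percentage of all protein-coding genes with a region within 2 kb of a start, by the number of CpG within 500 bp of the most upstream start, for each library at 1e-9. Right, the same CpG number against H2A.ZWT bases for the 10 genes, open circles marking genes with none. The genes with 250 bp or more of H2A.ZWT have 23 to 57 CpG and the others, H2afz with its short region among them, 73 to 122. This cut was chosen after the values were seen, and its share over all genes was not computed. The H2A.ZWT curve for all genes gives a share called, not bases, and stays between 81.0% and 84.9% from 40 CpG upward.

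The promoters of the 10 genes were searched for the CCAAT box (CCAAT, or ATTGG on the other strand) and the TATA box (TATAAA, or TTTATA) from 250 bases before the most upstream start to 50 bases from it on. A CCAAT box was found in 7 of the 10 genes, against 37.9% of all promoters of this length. A TATAAA was found in 1, Ruvbl1, at -205 bp, against 13.4%. H2afz held 3 CCAAT boxes, at -80, -23 and 22 bp, and H2afv held 4, at -244, -224, -59 and -17 bp. The box nearest before the start of each is shown because both histone genes share it and neither has a region over it. The strand is that of the gene and capitals mark the match.
H2afz, chr3:137527416-137527445: gtgcgttctcccATTGGctggagcctcaag
H2afv, chr11:6344446-6344475, minus strand: acgtgagcggctATTGGtggaggcggcgcg
Srcap, Ep400 and Vps72 held no CCAAT in this window. The matches are letters in a window and do not show binding.

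The windows around the starts were compared with the whole genome for repeated sequence. Of the stretches of 32 bases in them, between 82.9% (H2afz) and 97.7% (Srcap) occurred once in mm9, with a median of 93.8%. Ep400 had 97.4% and Ino80 92.3%, compared with 84.6% for Ruvbl1 and 90.1% for Vps72, which had H2A.ZWT. The lowest shares among the 10 were at H2afz, Ruvbl1 and Vps72. The part of repeated sequence in the calls at the 10 genes, or in their absence, was not tested.

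Another 33 genes of the pathway were examined in the same way. They were 27 other subunits of the complexes, both NAP1 histone chaperones and 4 other H2A variants. H2A.ZWT was called at a start of 26 of the 33, with a median of 300 bp, against 61.7% and a median of 300 bp over all genes. Most of the 33 had at least 23 CpG within 500 bp of the most upstream start. Of all genes with that many, 81.1% had H2A.ZWT. H2A.ZAP3 was called at 10 of the 33, against 23.2% of all genes. Among the subunits H2A.ZWT was called at 22 of 27. It was called at 3 of 3 specific to SRCAP, 8 of 10 specific to TIP60, 9 of 11 specific to INO80, 1 of 2 shared by SRCAP and TIP60 and at Actl6a, the actin-related subunit of all these complexes. The genes without H2A.ZWT at a start were Yeats4, Morf4l2, Mbtd1, Ino80d and Yy1 among the subunits, and H2afx and H2afj among the variants. H2afx encodes the variant phosphorylated at DNA breaks. Of these 7, Yy1, Morf4l2 and H2afj had no H2A.ZWT region within 10 kb of the gene either.

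The most H2A.ZWT among these genes was at Meaf6, a TIP60 subunit gene with 1850 bp, H2afy2, which encodes a macroH2A, with 1425 bp, and Znhit1, a SRCAP subunit gene, with 850 bp. H2afy2 was the only one of the 33 with H3K27me3 at a start, over 375 bp (18.2% of all genes had such a region), and it also had 425 bp of H2A.ZAP3. The most H2A.ZAP3 was at Cfdp1, whose product is related to a subunit of the yeast exchange complex, with 1075 bp against 550 bp of H2A.ZWT. It was followed by Ino80b, with 925 bp against 375 bp, and H2afy2. Of the 10 pathway genes with both proteins, 4 had more bases of H2A.ZAP3 than of H2A.ZWT, against 6.35% of all 4894 genes with both. They were Cfdp1 on chromosome 8, Ino80b on chromosome 6, Epc1 and Morf4l1, and their number was noticed after the values were seen. At 1e-12 there were 2 of 10, Cfdp1 and Ino80b, against 4.74% of all 3991 genes with both, since Epc1 had 200 bp of each and Morf4l1 had 100 bp of H2A.ZAP3 and 125 bp of H2A.ZWT. On chromosomes 6 and 8, where the H2A.ZAP3 list is dense, 3 of 4 pathway genes had H2A.ZAP3 at a start, against 7 of 29 elsewhere. Of all genes the share was 43.6% on chromosome 6, 50.3% on chromosome 8 and 20.5% elsewhere.

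**Figure D5:**
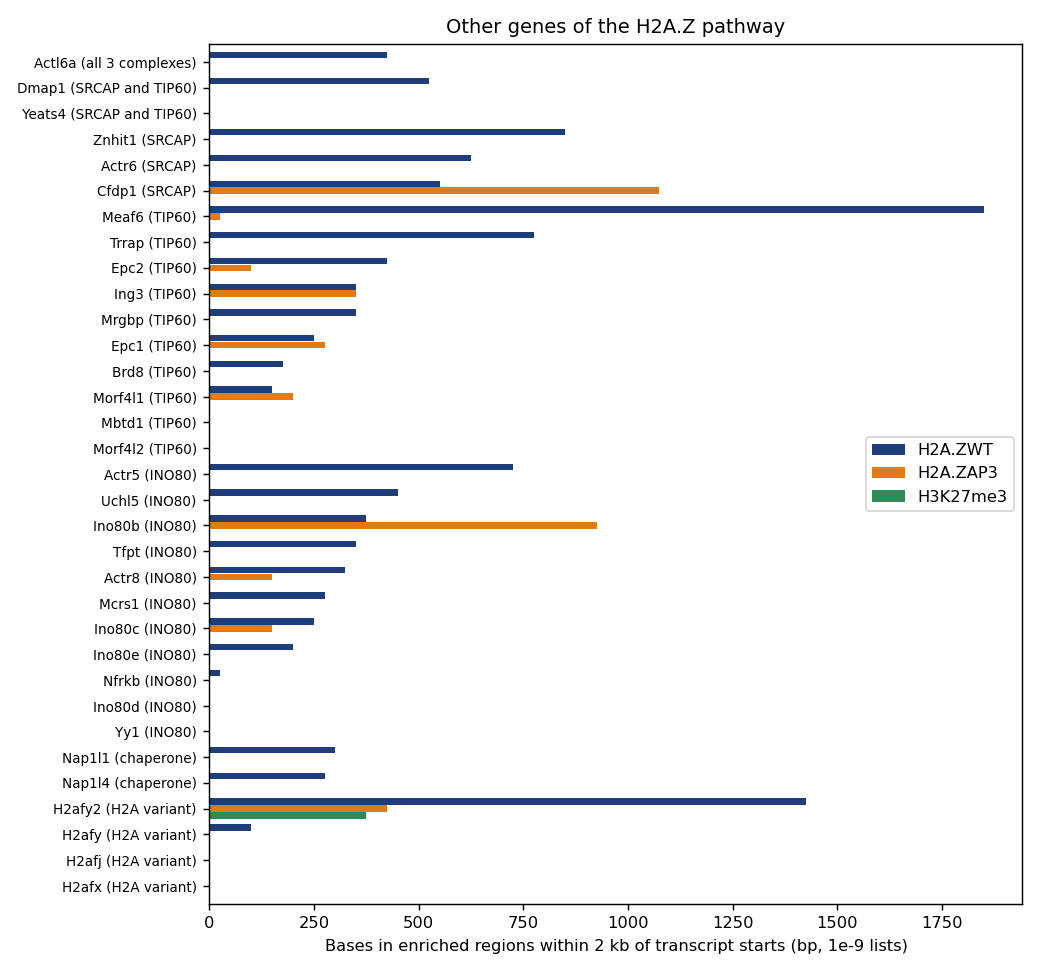
Bars give the bases in regions of the 1e-9 lists within 2 kb of transcript starts, in bp, for 33 other genes of the pathway grouped by complex. H2A.ZWT is present at 26, H3K27me3 only at H2afy2, and H2A.ZAP3 is longer than H2A.ZWT at Cfdp1, Ino80b, Epc1 and Morf4l1, of which only Cfdp1 and Ino80b keep this in the 1e-12 lists.

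The genes whose regions were most like those of H2afz were found by the Jaccard index, the shared share of covered bins of 25 bp within 2 kb of the most upstream start, over 480 bins of the 3 libraries together. They were Enoph1 and Hnrnpr, each at 0.667, and Cebpg, Fancb and Gpr179, each at 0.600. With only 3 bins covered at H2afz, these values say that each of these genes had a short H2A.ZWT region at about the same distance upstream and no region of the other libraries there.

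The cell type label was set beside genes chosen for it. H3K27me3 was called at a start of 8 of 8 regulators of differentiation and of 1 of 8 pluripotency genes, Esrrb, against 18.2% of all genes. It covered 2908 bp at Esrrb and from 2375 bp at Gata6 to 14037 bp at Pax6 among the regulators. Both sets were chosen by whether their genes carry this mark in ESCs, and no other cell type was compared, so the label was not tested. Region lists measure no expression, so the transcript levels of the markers and of the 10 genes could not be given. At 1e-9 the lists held 78359 regions for H2A.ZWT, 14599 for H2A.ZAP3 and 16970 for H3K27me3.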

How the data were processed

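The authors aligned the reads to mm9 with Bowtie 0.12.3, extended them, allocated them to bins of 25 bp and called enriched bins with a Poisson model and a minimal enrichment over input. The calling is described for H2A.Z, and whether H3K27me3 was treated alike is not given in the sources used here. The deposited values are starts and ends of regions. The methods state the 1e-9 threshold, which gave the main values. Input and reads were not analysed here.

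Starts, exons and genes were taken from GENCODE vM1 on NCBIM37 (mm9), and 0 regions passed a chromosome end of that assembly. Every annotated transcript counted, and an overlap of 1 bp sufficed. Sequence was read from the same assembly. The members and lists were chosen with earlier results of these data known. Other pathway genes were named if they had no H2A.ZWT or had H3K27me3 at a start, or ranked in the first 3 by H2A.ZWT or H2A.ZAP3 bases, and 5 genes by likeness to H2afz, leaving out genes within 10 kb of it. All others were named after their values were seen. Alternatives were the 1e-12 lists, other windows, a minimum region length and omission of chromosomes 6 and 8. The comparisons by CpG, motif, repeated sequence, neighbourhood and chromosome were added after the values were seen. Interval code was tested on simulated data. Analyses used Python 3.11.15, NumPy 2.4.6 and Numba 0.67.0, and figures Matplotlib 3.10.9.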

Additional observations from a re-analysis of the deposited data

How the results depend on the processing

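Over 86 alternative values of the counts, the covered share and the H2afz exon bases, 80 stayed close to the main value and 6 did not. A count was close within 1.5 times and the share within its 95% Wilson interval over covered bins. Bins of the same region are not independent, so the interval served as a yardstick and measures no sampling spread. The 80 include the H3K27me3 counts of the 10 genes and the H2afz exon bases, which were 0 in every setting. Without chromosomes 6 and 8, a setting chosen after seeing the data, H2A.ZAP3 was at a start of 1 of 9 genes, against 20.5% of all genes. Its covered share was then 6.42%, against 10.7% over all genes, and in the 1e-12 lists it was 7.14%, against 11.7%, compared with 12% and 14.3% in the 1e-9 lists. Over genes with flank, H2A.ZAP3 fell from 4 genes to 2 in the 1e-12 lists, to 2 with regions of at least 100 bp and to 1 with no flank. The calls at Srcap and Vps72 were single regions of 25 bp in the flanks, and the region at Anp32e lay upstream of the gene. Among 60 values of bases at single genes, chosen after seeing the data, 2 left the Wilson interval of their share of bins, H2afz with 0 bp of H2A.ZWT and Ruvbl1 with 100 bp of H2A.ZAP3, both in the 1e-12 lists. H2A.ZAP3 at Anp32e stayed within its interval but fell from 175 to 100 bp there, by more than 1.5 times. H2A.ZWT and H3K27me3 counts kept within 1.5 times the main value under each setting run. With no flank H2A.ZWT over the genes fell from 6 to 4, which this rule takes as close. Read depth is unknown, which limits what an absent region means. No paired analysis was possible because each group held 1 library.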

Other observations

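A region of the 1e-12 list should also pass 1e-9, but in these genes some did not. Within 2 kb of the starts this occurred at 0 of the 10 H2A.Z and machinery genes and at 2 of the 33 other pathway genes. Meaf6 had 250 bp of H2A.ZAP3 that only the 1e-12 list held, beside 25 bp in the 1e-9 list, and Nfrkb had 225 bp of H2A.ZWT that only the 1e-12 list held, beside 25 bp in the 1e-9 list. These genes were named after their values were seen. In the flank of Ruvbl2 a further H2A.ZWT region of 200 bp, from 24566 to 24765 bp, was in the 1e-12 list alone.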
